A study of Mus musculus with 6 samples.

Results

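The genes described here are 10 mouse genes that are known to be induced by the transcription factor STAT3, or to belong to the acute-phase response that STAT3 drives. They are Lcn2, Saa3, Hp, Steap4 and Il1rn, whose products act outside the nucleus, the kinases Pim1 and Pim3, and the transcription factors Bcl6, Cebpb and Cebpd. The list was chosen with earlier results of these data known and is applied by gene symbol. Each symbol matched 1 Ensembl identifier, and the 10 genes are part of 53700 that were listed. Of these, 7 had a mean of at least 1 TPM (a transcript level scaled for transcript length and library total) over the 6 libraries and were tested with 12510 genes in all. Hp, Steap4 and Il1rn lay under that level.

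RNA-seq was performed on 2 lines of SL4, a luciferase-expressing mouse colorectal cancer (CRC) cell line, with 3 libraries each. The pLV-SEMA6A group carried a lentivirus that overexpressed SEMA6A, a transmembrane semaphorin. The pLV-Control group did not overexpress it, and the sources used here do not say whether the cells of its libraries carried an empty vector. No agent was added to either group in the labels. The sources do not state whether the pLV-SEMA6A line was a clone or a pool, or whether the replicates were separate cultures, so an effect of SEMA6A and a difference between lines cannot be told apart, and the p-values measure the spread between these libraries, which may be technical. Sema6a was at 0 TPM throughout pLV-Control, and reached 98.7 to 118 TPM in pLV-SEMA6A. Correlations of log2(TPM + 1) across genes were 0.967 to 0.978 inside the groups and 0.941 to 0.957 across them. Of 10 markers of colon epithelium, Epcam, Cdx1 and Cdx2 were at 0 in each of the 6 libraries, and only Lgals4 had a mean of at least 1 TPM (1.78, 2.33 and 2.33 TPM in pLV-Control and 0, 0.28 and 0.81 TPM in pLV-SEMA6A). Most of these markers were thus under the tested level in this line, which the study describes as CRC. In the mitochondrial gene mt-Co3, the second pLV-SEMA6A library stood apart at 0.33 TPM against 141 to 450 TPM in the others.

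STAT3 is the main transcription factor below the interleukin-6 (IL-6) family of cytokines. Their receptors share the subunit gp130, the JAK kinases bound to it phosphorylate STAT3, and STAT3 dimers then bind DNA at palindromic sites and switch on target genes, among them the feedback inhibitor Socs3. In the liver this route, together with C/EBP factors and with NF-kB below interleukin-1, produces the acute-phase proteins, and in the inflamed gut and in colorectal tumours epithelial cells switch on several of the same genes. RNA levels do not measure STAT3 phosphorylation, so "STAT3-induced" is the known property of the genes and was not measured in these libraries.

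The DNA elements named above could be looked for in front of the genes. RefSeq windows on the GRCm38.p6 build, each 250 bases before to 50 bases after a transcription start, were available for 8 of the 10 genes, in 12 windows. The authors' processing notes name the later mm39 build, so the positions given here are those of the RefSeq table. Each window was searched on both strands for the STAT palindrome TTCNNNGAA and the C/EBP element TTGCNNAA, for an NF-kB element (GGG and TTCC with any 3 bases between) and for an interferon response element (2 GAAA repeats with any 2 bases between). A match describes the letters only. The shares of all 32851 windows with a match were 8.30% for STAT, 10.8% for C/EBP, 5.56% for NF-kB and 3.44% for the interferon element.

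Bcl6 was the gene with the most STAT palindromes, 1 before its upstream start and 3 before its downstream start, and both upstream stretches are shown because these are the only STAT matches among the tested genes with a window. The stretches lie on the minus strand at chr16:23988853-23989102 and chr16:23981284-23981533, are written 5′ to 3′ up to the base before the start, and carry the matches in capitals. In the upstream stretch the STAT palindrome begins 118 bases before the start and is followed by an NF-kB element. In the downstream stretch the palindromes begin 168, 122 and 88 bases before the start.
Bcl6, upstream start: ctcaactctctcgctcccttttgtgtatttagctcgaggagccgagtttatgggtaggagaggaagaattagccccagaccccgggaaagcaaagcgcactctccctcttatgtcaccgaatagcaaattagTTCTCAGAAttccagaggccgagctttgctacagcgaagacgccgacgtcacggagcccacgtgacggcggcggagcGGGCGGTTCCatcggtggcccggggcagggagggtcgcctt
Bcl6, downstream start: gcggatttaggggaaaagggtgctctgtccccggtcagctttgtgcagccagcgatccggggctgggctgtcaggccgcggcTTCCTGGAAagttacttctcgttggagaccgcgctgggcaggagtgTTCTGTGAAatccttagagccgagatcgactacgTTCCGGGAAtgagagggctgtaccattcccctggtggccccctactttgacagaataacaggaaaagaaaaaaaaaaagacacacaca

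Among the genes that passed the test, Lcn2, Saa3 and Pim3 also carried matches. Each is shown in 30 bases with the element in capitals, because these are the elements that sit in front of the genes whose levels differed. The C/EBP match of Lcn2 began 216 bases before the start (chr2:32387937-32387966, minus strand). Saa3 had a C/EBP match 99 bases before its start (chr7:46715757-46715786, minus strand) and an interferon element 125 bases before it (chr7:46715782-46715811, minus strand). Pim3 had an NF-kB match 136 bases before its start (chr15:88862048-88862077, plus strand). The strands given are those of the genes and of the bases shown. The C/EBP match of Saa3 and the NF-kB match of Pim3 lie on the other strand, so their capitals are reverse complements of the element.
Lcn2, C/EBP: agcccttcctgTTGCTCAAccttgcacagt
Saa3, C/EBP: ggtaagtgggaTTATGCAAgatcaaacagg
Saa3, interferon element: gttatcttctGAAAGAGAAAttatgggtaa
Pim3, NF-kB: ggcgaggctcGGAAGGCCCCgccctacgct

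Steap4 held a STAT palindrome 116 bases, a C/EBP element 87 bases and an NF-kB element 226 bases before its start, and Il1rn held NF-kB matches in its 3 windows, of which 2 overlap and share a match. No match to any of the 4 elements was found in the 2 windows of Pim1 or in the window of Cebpb. By gene, the STAT palindrome was found in 2 of 8, the C/EBP element in 3, the NF-kB element in 4 and the interferon element in 1. By window, which is the unit of the shares given above, these were 3, 3, 6 and 1 of 12. Of the genes with a STAT palindrome, Bcl6 passed the test described next and Steap4 was too low to be tested. For reference, Socs3, a known direct STAT3 target outside the list, had a palindrome 154 bases before its start (chr11:117969502-117969530, minus strand).
Socs3, STAT: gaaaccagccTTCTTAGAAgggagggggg

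**Figure D1:**
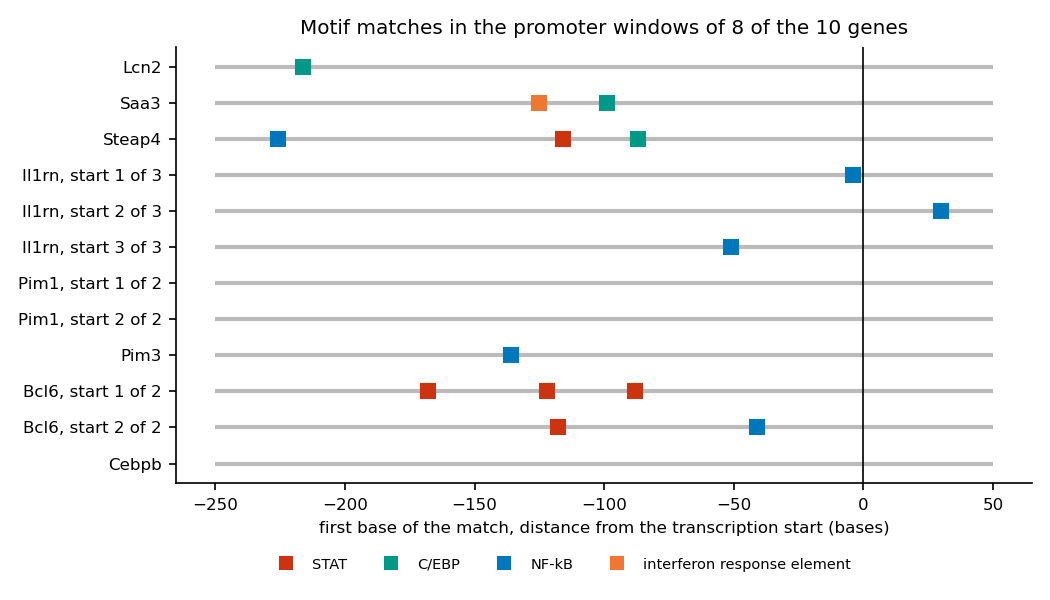
Positions of the element matches in the 12 promoter windows of 8 genes. The x axis gives the first base of each match as its distance in bases from the transcription start, grey lines are the windows of 250 bases before to 50 bases after the start, and colours give the 4 elements. Bcl6 and Steap4 carry STAT palindromes, while the windows of Pim1 and Cebpb are empty.

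Of the 7 genes tested, Lcn2, Saa3, Pim1, Pim3 and Bcl6 were lower in pLV-SEMA6A, none was higher, and Cebpb and Cebpd did not pass. A gene passed at an adjusted p under 0.05 from limma on log2(TPM + 1), with Benjamini-Hochberg adjustment over all 12510 genes. Differences were common in this comparison. By the same rule 47.6% of all genes tested passed, 28.2% as lower and 19.5% as higher, beside 5 of 7 genes lower and 0 higher here. Lcn2, Pim1 and Saa3 also had an absolute log2 fold change over 0.5 and were downregulated DEGs (differentially expressed genes), beside 10.8% of all genes as lower and 5.12% as higher DEGs. Lcn2 reached the tested level through pLV-Control alone, where it is high. Among the 6 genes that averaged 1 TPM or more in both groups, 4 were lower, 0 higher, and Pim1 and Saa3 were the 2 DEGs. Since the list was chosen with results known, these counts describe the genes and are no independent evidence of a direction. In bulk RNA, fewer expressing cells and less RNA per cell cannot be told apart. Among the 7 genes tested, every pLV-SEMA6A library lay below every pLV-Control library for 5, the same genes that passed, and above for 0. Over all 12510 genes tested, the shares were 34.7% below and 23.8% above. Hp, Steap4 and Il1rn, which were not tested, overlapped. An exact two-sided permutation test of 3 libraries against 3 gives p = 0.1 for each of the 5 genes, the smallest it allows.

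**Figure D2:**
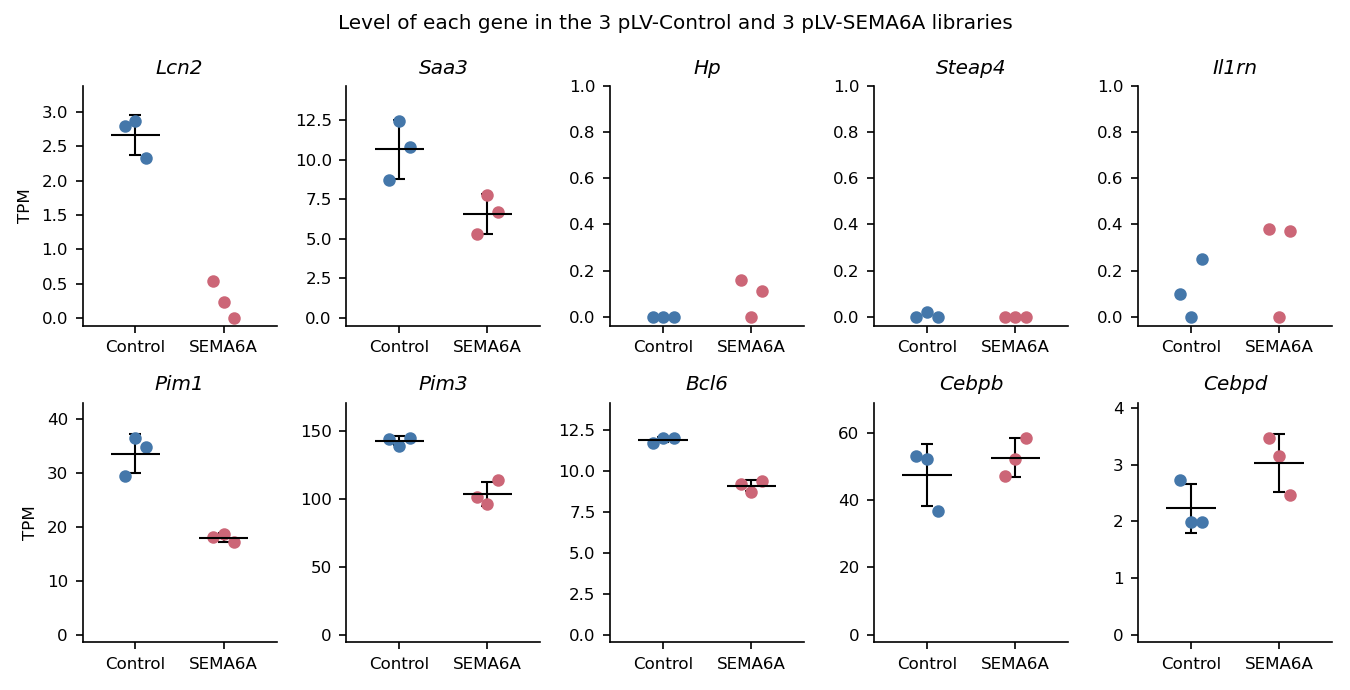
TPM of the 10 genes in each library, with pLV-Control in blue and pLV-SEMA6A in red. Points are libraries, horizontal lines are means and bars are SD (n = 3), which are left out for a group with a library at 0, and each panel has its own y axis. The groups are apart for Lcn2, Saa3, Pim1, Pim3 and Bcl6, and they overlap for the other genes.

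Lcn2 (ENSMUSG00000026822, chromosome 2) encodes lipocalin 2, a secreted protein that binds bacterial siderophores and so withholds iron. It was at 2.80, 2.86 and 2.33 TPM in pLV-Control, against 0.54, 0.24 and 0 TPM in pLV-SEMA6A. The lowest pLV-Control library was above the highest pLV-SEMA6A library, where 1 of 3 libraries listed none. The log2 fold change was −1.56 (standard error 0.21, 95% interval −2.06 to −1.06, limma adjusted p = 0.00130), and 165 of the 12510 genes had a lower one. Lcn2 is a gene of low level, its mean of 1.46 TPM over the 6 libraries passed the filter through pLV-Control alone, and its size depends on the pseudocount: with 0.1 in place of 1 the log2 fold change was −3.30 (limma adjusted p = 0.00866).

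Saa3 (ENSMUSG00000040026, chromosome 7), an acute-phase serum amyloid A protein made by tissues outside the liver, was at 8.73, 12.4 and 10.8 TPM in pLV-Control, against 5.29, 7.79 and 6.70 TPM in pLV-SEMA6A. The groups did not overlap, but both spread widely and the gap between them was narrow. The means were 10.7 ± 1.85 and 6.59 ± 1.25 TPM (SD, n = 3), and the log2 fold change was −0.62 (standard error 0.16, 95% interval −1.01 to −0.23, limma adjusted p = 0.0207). The call was lost when genes of any level were tested (limma adjusted p = 0.0546), under quantile normalization (0.0597), and without pLV-Control replicate 2 (0.0626), pLV-Control replicate 3 (0.0610), pLV-SEMA6A replicate 1 (0.0518) or pLV-SEMA6A replicate 3 (0.0513). In GENCODE transcripts 7.44% of its 31-base stretches also occur in other genes, Malat1 first, which makes its level less certain than that of the others.

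The remaining secreted or membrane products were close to 0 in both groups. Hp (ENSMUSG00000031722, chromosome 8), haptoglobin, the plasma protein that captures free haemoglobin, was listed at 0 in each library of pLV-Control, against 0.16, 0 and 0.11 TPM in pLV-SEMA6A. Steap4 (ENSMUSG00000012428, chromosome 5), a membrane metalloreductase of iron and copper, was listed at 0.02 TPM in pLV-Control replicate 2 and at 0 elsewhere. Il1rn (ENSMUSG00000026981, chromosome 2), the receptor antagonist that blocks interleukin-1, was at 0.10, 0 and 0.25 TPM in pLV-Control, against 0.38, 0 and 0.37 TPM in pLV-SEMA6A. TPM carry no read depth, so it cannot be said how few reads these values stand for. When genes of any level were tested (24518 genes), the limma adjusted p was 0.225 for Hp, 0.803 for Steap4 and 0.548 for Il1rn.

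Pim1 (ENSMUSG00000024014, chromosome 17) encodes a serine/threonine kinase that favours survival and cell cycle entry and has no regulatory domain, so that its amount sets its activity. It was at 29.5, 36.5 and 34.7 TPM in pLV-Control, against 18.2, 18.7 and 17.1 TPM in pLV-SEMA6A. The lowest pLV-Control library was well above the highest pLV-SEMA6A library, and the spread was smaller in pLV-SEMA6A. The means were 33.5 ± 3.65 and 17.98 ± 0.84 TPM (SD, n = 3), a ratio of 0.536, and the log2 fold change was −0.86 (standard error 0.08, 95% interval −1.06 to −0.65, limma adjusted p = 0.000366). A lower log2 fold change was found in 593 of the 12510 genes.

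Pim3 (ENSMUSG00000035828, chromosome 15), a kinase of the same family, had the highest level of the 10 genes. It was at 145, 139 and 145 TPM in pLV-Control, against 101, 96.4 and 114 TPM in pLV-SEMA6A. The groups were apart by more than the spread within either. The means were 143 ± 3.37 and 104 ± 8.96 TPM (SD, n = 3), and the log2 fold change was −0.46 (standard error 0.06, 95% interval −0.61 to −0.31, limma adjusted p = 0.00130), under the DEG minimum. Pim1 and Pim3 thus moved the same way, and the interval of Pim1 lay below that of Pim3, although the difference between them was not tested itself.

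Bcl6 (ENSMUSG00000022508, chromosome 16), a zinc finger repressor best known from germinal centre B cells, was the least variable of the genes. It was at 11.72, 12.01 and 11.98 TPM in pLV-Control, against 9.18, 8.70 and 9.35 TPM in pLV-SEMA6A. The ranges of the groups were narrow and apart. The means were 11.9 ± 0.16 and 9.08 ± 0.34 TPM (SD, n = 3), and the log2 fold change was −0.36 (standard error 0.06, 95% interval −0.49 to −0.22, limma adjusted p = 0.00247). Under quantile normalization it was −0.22 (limma adjusted p = 0.0205).

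The C/EBP factors, which bind acute-phase promoters together with STAT3, did not pass the test. Cebpb (ENSMUSG00000056501, chromosome 2) was at 53.3, 52.3 and 36.9 TPM in pLV-Control, against 47.2, 52.4 and 58.6 TPM in pLV-SEMA6A, and the groups overlapped. The means were 47.5 ± 9.21 and 52.7 ± 5.74 TPM (SD, n = 3), and the log2 fold change was 0.16 (standard error 0.15, 95% interval −0.21 to 0.53, limma adjusted p = 0.419). Without pLV-Control replicate 3, the lowest library, it was −0.0077 (limma adjusted p = 0.955).

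Cebpd (ENSMUSG00000071637, chromosome 16), a C/EBP factor that IL-6 induces in the liver, was at 2.72, 1.98 and 1.98 TPM in pLV-Control, against 3.47, 3.15 and 2.46 TPM in pLV-SEMA6A. The lowest pLV-SEMA6A library lay inside the pLV-Control range and the other two above it. The means were 2.23 ± 0.43 and 3.03 ± 0.52 TPM (SD, n = 3), and the log2 fold change was 0.32 (standard error 0.16, 95% interval −0.06 to 0.70, limma adjusted p = 0.138). Under quantile normalization it was 0.51 and passed as higher (limma adjusted p = 0.0310). Cebpd overlaps Spidr on the opposite strand, which fell from 24.03 ± 0.74 to 15.0 ± 0.64 TPM (SD, n = 3), and Cebpb likewise overlaps Tmem189, at 25.4 and 25.9 TPM. Of the genes that were lower, Pim1 overlaps Gm26885 on the opposite strand, at 3.41 and 3.14 TPM, and Bcl6 overlaps Gm37419, which was listed at 0. The methods describe no step that marks strand, so reads of the overlapping stretches cannot be assigned.

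**Figure D3:**
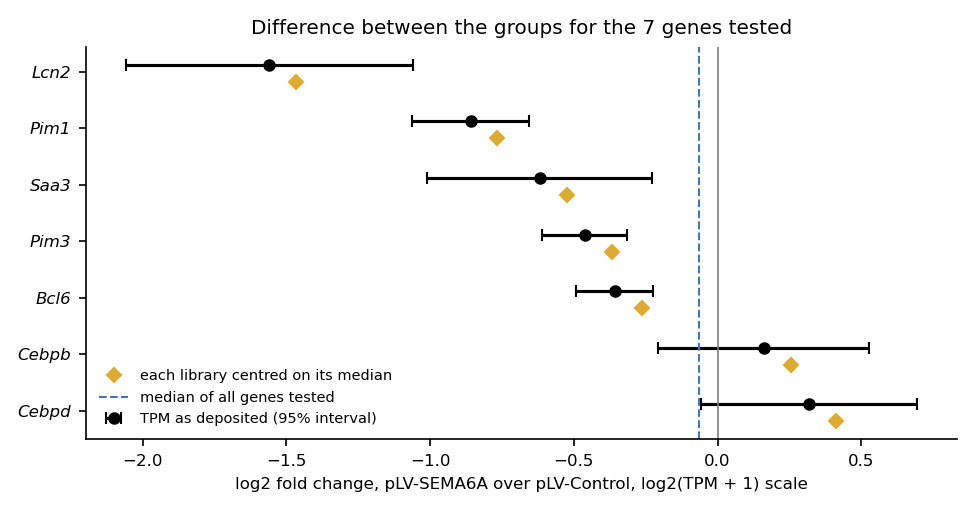
Log2 fold change of pLV-SEMA6A over pLV-Control for the 7 genes tested, on the log2(TPM + 1) scale. Circles with bars are the values and 95% intervals for TPM as deposited, diamonds are values after centring each library on its median, and the dashed line is the median of all genes tested. The intervals of 5 genes lie below 0 and those of Cebpb and Cebpd include it.

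As a group, the 7 genes had a median log2 fold change of −0.46, beside −0.06 over all genes tested. The medians of the libraries differed between the groups by −0.09, and after centring each library on its median the 2 values became −0.37 and 0.03. After centring, the same 5 genes were lower, from −1.47 for Lcn2 to −0.26 for Bcl6, and 0 were higher, beside 19.8% and 26.9% of all genes. The centred DEGs remained Lcn2, Pim1 and Saa3 (−0.53, limma adjusted p = 0.0375), beside 7.68% of all genes as lower and 8.01% as higher. Lcn2, which is part of these medians and counts, reached the tested level through pLV-Control alone. Since the list was chosen with results known, the medians and counts describe the genes and are no independent evidence of a direction.

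The order of levels was nearly the same in both groups. In pLV-Control it ran Pim3, Cebpb, Pim1, Bcl6, Saa3, Lcn2, Cebpd, and then Il1rn, Steap4 and Hp. The ranges of Bcl6 and Saa3, of Lcn2 and Cebpd, and of the last 3 genes overlapped there, so that these neighbours cannot be ordered. In pLV-SEMA6A, Lcn2 fell behind Cebpd into the range of Il1rn and Hp, and Bcl6 lay above Saa3 without overlap.

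The genes also varied inside the groups. In pLV-Control, replicate 1 was the lowest and replicate 2 the highest for Pim1, Saa3 and Bcl6, and also for Stat3 (21.6, 27.0 and 23.0 TPM) and Socs3 (6.13, 8.54 and 7.14 TPM). The other tested genes did not share this order. Pim3 was lowest in replicate 2, Lcn2 and Cebpb were lowest in replicate 3, and Cebpd was highest in replicate 1. In pLV-SEMA6A, Saa3 ran from 5.29 to 7.79 TPM while Pim1 stayed within 17.1 to 18.7 TPM. With 3 libraries a group, no correlation between the genes inside a group was computed.

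The gene of at least 10 TPM whose log2(TPM + 1) followed each one most closely over the 6 libraries was sought among 8180 genes. As a description, with Pearson's r over 6 libraries that share the group difference, it was Dab2 for Lcn2 (0.997), Snupn for Saa3 (0.993), 4930581F22Rik for Pim1 (0.999), Gsdmd for Bcl6 (0.999), Armc8 for Cebpb (0.946) and Gm7862 for Cebpd (0.998). For Pim3, the gene with the highest level, the 3 closest were Rps20 (0.998), Asah1 (0.996) and Cdin1 (0.996). An r over 0.95 was reached by 1049 genes for Bcl6, 1028 for Pim1, 946 for Lcn2, 534 for Pim3, 54 for Saa3, 18 for Cebpd and 0 for Cebpb, so a close partner of the first 4 is not unusual here.

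Upstream of the 10 genes, members of the IL-6 to STAT3 axis moved in both directions. The mean of Stat3 was 23.9 ± 2.79 TPM in pLV-Control, against 18.1 ± 0.35 TPM in pLV-SEMA6A (SD, n = 3), a log2 fold change of −0.38 (limma adjusted p = 0.010004). Socs3 was at 7.27 ± 1.21 and 5.27 ± 0.35 TPM (SD, n = 3), a log2 fold change of −0.39 (limma adjusted p = 0.0365), but its call was lost after centring (0.0886), under quantile normalization (0.200), and without any 1 library other than pLV-Control replicate 1 (up to 0.101). Of 30 genes of this axis, 20 were tested, 8 were lower (40.0%), 6 were higher and 6 did not pass, with a median of −0.17, beside 28.2% lower and 19.5% higher over all genes. After centring 7 were lower and 6 higher, beside 19.8% and 26.9% of all genes. Under quantile normalization the counts were 7 and 7, and no share of all genes was computed. The cytokine Il6 was not tested, since its mean was under 1 TPM.

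By role, the receptor subunit of oncostatin M, Osmr, had a log2 fold change of −0.68 (9.24 to 5.35 TPM), while gp130 itself, Il6st, had 0.13, the interleukin-10 receptor subunit Il10rb 0.23 and the cytokine Clcf1 0.29. At lower levels, the cytokines Il11 (2.24 to 0.667 TPM) and Lif (3.52 to 1.57 TPM) had −0.96 and −0.81 and were DEGs, and the IL-6 receptor chain Il6ra (3.06 to 4.23 TPM) had 0.37. Il11, counted among the lower genes of this axis, reached the tested level through pLV-Control alone. The kinases divided. Tyk2 had −0.88 (11.8 to 6.00 TPM) and Jak2 −0.32, and Jak1 had 0.19. Of the regulators, the STAT3 inhibitor Pias3 had −0.53 and the phosphatase Ptpn11 0.18. All of these passed the limma test. Il6st lost its call without any 1 library other than pLV-SEMA6A replicate 3 (limma adjusted p up to 0.105), Il10rb without any 1 other than pLV-Control replicate 2 (up to 0.105), and Clcf1 without pLV-Control replicate 1 or 3 (up to 0.0766). Lif lost its call without pLV-Control replicate 1 (0.0524), and Il6ra without pLV-Control replicate 1 or 2 or pLV-SEMA6A replicate 2 or 3 (up to 0.0835). Il6ra also did not pass when genes of any level were tested (limma adjusted p = 0.0923) or with the replicate number as a block (0.0574).

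The other known STAT3-induced and acute-phase genes likewise went both ways. Of 39 listed, 15 were tested, 8 were lower (53.3%), 5 were higher (33.3%) and 2 did not pass, beside the same 28.2% and 19.5%, with a median of −0.15, and 14 of the 39 were at 0 in every library. After centring 4 were lower and 6 higher, beside 19.8% and 26.9% of all genes. Under quantile normalization, without a computed share, the counts were 6 and 5. The highest rise was in Mt2, a metal-binding metallothionein, from 582 ± 27.1 to 2418 ± 27.1 TPM (SD, n = 3), a log2 fold change of 2.05. The cell cycle gene Ccnd1 followed with 0.65 (107 to 168 TPM), the zinc transporter Slc39a14 with 0.57, the survival gene Birc5 with 0.45 and the protease inhibitor Timp1 with 0.24. The ferroxidase ceruloplasmin, Cp, had −0.48 (47.5 to 33.8 TPM), and Nnmt −0.24, Junb −0.23 and Bcl2l1 −0.15. The receptor Il4ra, at a lower level (5.22 to 3.27 TPM), had −0.54, but did not pass under quantile normalization (limma adjusted p = 0.0538). Nnmt, Junb and Bcl2l1 did not pass after centring (limma adjusted p = 0.140, 0.0577 and 0.415). Nnmt also lost its call without pLV-Control replicate 1 or 2 or pLV-SEMA6A replicate 2 or 3 (up to 0.0982), and Bcl2l1 without any 1 library other than pLV-SEMA6A replicate 3 (up to 0.127). Stat3, Socs3 and Osmr belong to this list too.

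**Figure D4:**
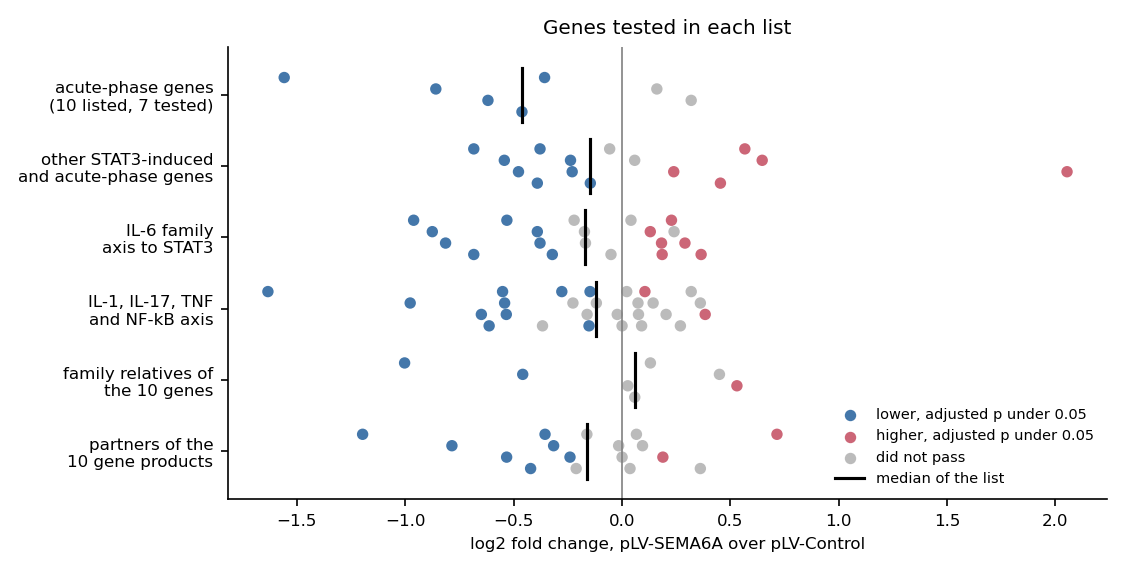
Log2 fold change of pLV-SEMA6A over pLV-Control for each gene tested in the 10-gene list and in 5 lists of related genes. Points are genes, coloured by whether they passed as lower or higher, and black bars are list medians, from −0.46 in the 10-gene list to 0.06 in the family relatives. Each of the 5 related lists holds genes that passed in both directions. In the 10-gene list those that passed were all lower, while Cebpb and Cebpd lie above 0 and did not pass. All lists were chosen with earlier results of these data known.

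NF-kB, below interleukin-1 and tumour necrosis factor, is the other input to Lcn2, Saa3 and Il1rn, and Nfkbiz, its atypical inhibitor-like cofactor, is needed for Lcn2 in other cells. Nfkbiz was at 8.32, 7.25 and 10.2 TPM in pLV-Control, against 5.15, 5.82 and 5.51 TPM in pLV-SEMA6A, without overlap. Its log2 fold change was −0.55 (limma adjusted p = 0.0105). Of 32 genes of this axis, 27 were tested, 10 were lower (37.0%), 2 were higher (7.41%) and 15 did not pass, beside 28.2% and 19.5% of all genes, with a median of −0.12. After centring 8 were lower and 7 higher, beside 19.8% and 26.9% of all genes. Under quantile normalization, without a computed share, the counts were 8 and 5.

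Within it, the interleukin-33 receptor Il1rl1 fell most, from 33.8 ± 4.20 to 10.2 ± 1.11 TPM (SD, n = 3), a log2 fold change of −1.63. The feedback inhibitors Nfkbia (49.0 to 30.9 TPM) and Tnfaip3 had −0.65 and −0.54, and the subunit Relb −0.61. At lower levels, the cytokine Il18 (3.67 to 1.36 TPM) had −0.98 and the inhibitor Nfkbie (2.84 to 1.65 TPM) −0.53, of which Nfkbie did not pass under quantile normalization (limma adjusted p = 0.0582) or without pLV-Control replicate 1 or 2 (up to 0.0534). Smaller differences were −0.28 for the kinase Irak1, −0.15 for Traf2 and −0.15 for Nfkb2, of which Traf2 and Nfkb2 did not pass after centring. The adaptor Myd88 had 0.38, and Nfkb1 0.11, which did not pass under quantile normalization (limma adjusted p = 0.155). Traf2 lost its call without any 1 library (up to 0.0866), Nfkb2 without pLV-Control replicate 1 or 2 or pLV-SEMA6A replicate 1 or 3 (up to 0.0633), and Nfkb1 without pLV-Control replicate 2 or pLV-SEMA6A replicate 1 or 2 (up to 0.0671). Il1a, Il1b, Tnf and Il17a were under 1 TPM and not tested.

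Of 20 relatives in the same gene families, 19 were listed and 7 tested, of which 2 were lower (28.6%), 1 was higher (14.3%) and 4 did not pass, beside 28.2% and 19.5% of all genes. After centring 2 were lower and 4 higher, beside 19.8% and 26.9% of all genes. Under quantile normalization, without a computed share, the counts were 1 and 2. Saa1, Saa2 and Saa4, like Cebpa and Cebpe, were under the level tested, so Saa3 was the serum amyloid A gene that could be tested. Ddit3, the stress-induced C/EBP member, had a log2 fold change of −0.46 (715 to 520 TPM). Apod, a lipocalin like Lcn2, had −1.003 (1.80 to 0.39 TPM, limma adjusted p = 0.0248), but did not pass under quantile normalization (0.0529) or without pLV-SEMA6A replicate 1 or 3 (up to 0.0670), and fell below the tested level without pLV-Control replicate 2 or 3. Apod is counted among the 2 lower relatives, but reached the tested level through pLV-Control alone. Steap1, a relative of Steap4, had 0.53, from 162 ± 1.62 to 234 ± 1.06 TPM (SD, n = 3).

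The last list holds 22 partners of the gene products, among them the iron handling genes that meet Lcn2, Hp and Steap4. Of 17 tested, 7 were lower (41.2%), 2 were higher (11.8%) and 8 did not pass, beside 28.2% and 19.5% of all genes. After centring 6 were lower and 4 higher, beside 19.8% and 26.9% of all genes. Under quantile normalization, without a computed share, the counts were 7 and 3. Hmox1, the haem oxygenase that frees iron from haem, fell from 186 ± 10.4 to 80.6 ± 3.11 TPM (SD, n = 3), a log2 fold change of −1.20. The iron importer Slc11a2 had −0.78, and the ferritin chains Ftl1 and Fth1 −0.42 and −0.36, while the transferrin receptor Tfrc rose by 0.72 (15.0 to 25.3 TPM). Ferritin genes have many processed copies in the genome, between which reads may be split. The receptors and partners for Lcn2 and Hp, Slc22a17, Mmp9 and Cd163, were not tested. Of the other partners, the repressor Hbp1 had −0.53, the inhibitor Cdkn1b −0.24, which did not pass after centring (limma adjusted p = 0.0980) or without pLV-Control replicate 1 (0.0513), the protease Mmp2 −0.32 and the receptor Lrp1 0.19.

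Several of these genes are also abundant in other cells, so markers of those cells were summed. Of 10 neutrophil markers, S100a9, Ly6g, Mpo, Ltf, Ngp and Retnlg were at 0 in every library, and the sums were 0.55 to 1.20 TPM in pLV-Control, against 0.28 to 0.53 TPM in pLV-SEMA6A. Of 10 hepatocyte markers, 5 were at 0, Apoa1 and Ttr among them, with sums of 0.96 to 1.90 and 0.65 to 0.94 TPM. Macrophage markers summed to 12.8 to 13.7 and 16.3 to 18.6 TPM, nearly all from Cd14, with Adgre1, Itgam and C1qa at 0. The colon epithelium sums were 1.91 to 2.82 and 0.53 to 1.33 TPM. Lymphocyte markers summed to 0.06 to 0.27 and 0.18 to 0.31 TPM, which overlap. The neutrophil, hepatocyte and epithelial sums are lower in pLV-SEMA6A, as Lcn2 is, but rest on few genes of low level. Of these, the neutrophil marker S100a8 was under the tested level, and the hepatocyte marker Apoa2 did not pass (limma adjusted p = 0.129). The epithelial marker Lgals4 passed as a lower DEG (log2 fold change −1.24, limma adjusted p = 0.00760), but reached the tested level through pLV-Control alone. The macrophage marker Cd14 passed as higher (log2 fold change 0.47, limma adjusted p = 0.00195). Vil1, Krt8, Cdh1 and Krt19 of the epithelial list, Cxcr2 of the neutrophil list and Cyp2e1 of the hepatocyte list had higher means. All of these were under the tested level. The part of such cells in the Lcn2 values was not tested.

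**Figure D5:**
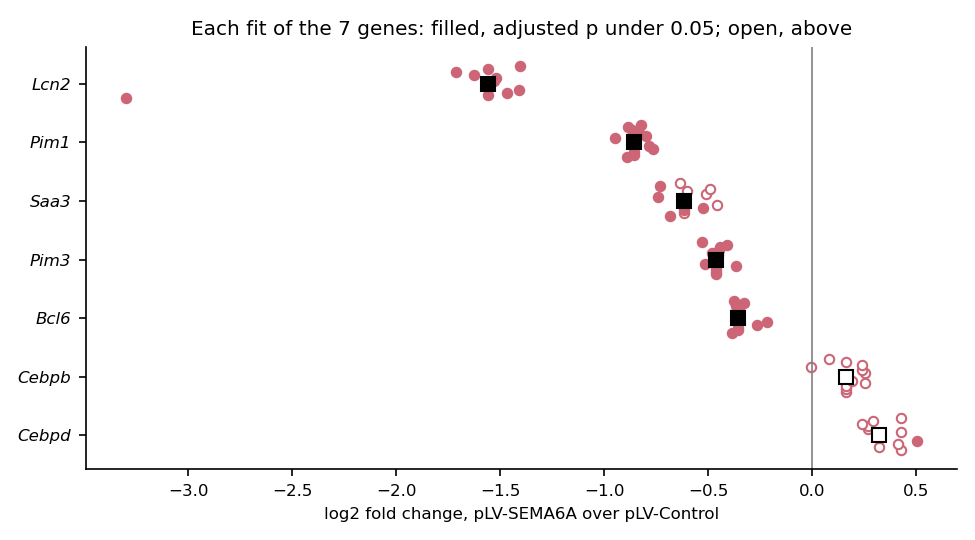
Log2 fold change of the 7 genes under each way of fitting, with squares for the values given in the text and circles for the alternatives, among them each library left out. Filled symbols have an adjusted p under 0.05 and open ones do not. Lcn2, Pim1, Pim3 and Bcl6 stay filled and below 0 in each fit, Saa3 is open in 6, Cebpd is filled in 1, and Cebpb in none.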

How the data were processed

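Poly(A) RNA of 6 SL4 libraries was sequenced on an Illumina platform. The submitters' processing notes list Bowtie2, HISAT, RSEM and the mm39 build, without roles or versions of the tools. The authors deposited TPM per gene with 2 decimals. TPM keep no read depth, so depth and detection limits are not known. The deposited group means of the authors were not used. From these values, log2(TPM + 1) was compared with limma 3.58.1 (R 4.3.3, trend option) over genes that averaged 1 TPM or more, with Benjamini-Hochberg adjustment over all of them. This scale understates changes of low genes. For DEGs, the adjusted p was under 0.05 and the log2 fold change beyond 0.5 in size. The fit was tested on simulated data.

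Samples were grouped by their labels. Members and lists were chosen with earlier results of these data known. Named from the related lists were genes that passed and averaged 5 TPM or more, plus Stat3, Socs3 and Nfkbiz. Il6, Il1a, Il1b, Tnf, Il17a, the markers named singly (Cd14 and Lgals4 among them), the untested relatives and partners, the passing list genes under that level and the overlapping genes were named after their values were seen. Alternatives were the pseudocount, the filter, median centring, quantile normalization, a replicate block, limma without trend, the minimum fold change, and each library left out. Promoter windows were RefSeq's on GRCm38.p6, and shared stretches were counted in GENCODE M21 transcripts.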

Additional observations from a re-analysis of the deposited data

How the results depend on the processing

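The lower calls of Lcn2, Pim1, Pim3 and Bcl6 were kept under every alternative in which the gene was tested, with limma adjusted p-values of 0.00143 to 0.00866, 0.000225 to 0.00252, 0.000489 to 0.00699 and 0.00176 to 0.0205. Over its alternatives, that of Saa3 ran from 0.00407 to 0.0626, of Cebpb from 0.221 to 0.955 and of Cebpd from 0.0310 to 0.322. Lcn2 and Cebpd were not tested with a mean of at least 5 TPM. Of the 10 genes, 5 were lower, and 4 were with no filter, with that higher filter and under quantile normalization, where 1, Cebpd, was higher. The shares of all genes lower and higher were computed only for the main fit and after centring. With a minimum absolute log2 fold change of 0.5, 3 were lower, and with 1, 1 was. Over all genes, 1987 DEGs became 385 with a minimum of 1 and 5959 without a minimum. Leaving out each library in turn gave 4 to 5 of the 10 genes lower, 0 higher, and 1900 to 1975 DEGs. It moved the log2 fold change of Saa3 between −0.74 and −0.49, with 4 of 6 calls lost, and that of Cebpb between −0.0077 (without pLV-Control replicate 3) and 0.25. Deviations from the group means did not correlate between same-numbered libraries (r of −0.0795 to −0.0228, and −0.00999 to 0.0788 for other numbers), so no shared effect of the number was seen. The labels do not state whether same-numbered libraries were prepared together, and these correlations cannot tell. With the replicate number as a block, 5 of the 10 genes were lower, 0 higher, and 1924 genes were DEGs, with limma adjusted p-values of 0.00552 for Lcn2, 0.00407 for Saa3, 0.00239 for Pim1, 0.00313 for Pim3, 0.0157 for Bcl6, 0.481 for Cebpb and 0.126 for Cebpd. Of the 41 genes of the related lists that passed and averaged 5 TPM or more, 0 changed sign under centring, quantile normalization or any library left out. Of them, 7 lost their call under centring, 4 under quantile normalization and 10 without at least 1 library. These counts leave out the named genes of lower level. Of those, Il4ra, Nfkbie and Apod lost their call under quantile normalization, and Il6ra, Lif, Nfkbie and Apod without at least 1 library. The causes were not tested. Depth is unknown, so levels near 0 cannot be told from 0.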
